A study of Sus scrofa with 22 samples.

Results

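A set of 10 genes that draw leukocytes out of the blood or that are switched on by the transcription factor NF-kappaB was followed in the cerebellum of young piglets: SELP, SELE, ICAM1, VCAM1, CCL2, CXCL8, IL1B, TNFAIP3, NFKBIA and PTGS2. They were picked by symbol, and 8 of the 10 matched a row among the 31907 pig Ensembl identifiers counted. SELE (E-selectin) and IL1B (interleukin 1 beta) matched no identifier by symbol and have no value here. The study compared 11 piglets with bile duct ligation (BDL, 7 females and 4 males) with 11 sham-operated piglets (SHAM, 5 females and 6 males). Surgery was done at day 8 of life and the animals were followed for 3 weeks. BDL stops bile from leaving the liver. The labels name no strain, genotype or drug, and give 1 library, 1 sex and 1 body weight per animal. No unit is given for the weight, and the age at weighing is not stated.

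In cholestasis and other inflammatory states, cytokines or bacterial products reach receptors on endothelial and glial cells, which signal through adaptor proteins to the IKK kinases. IKK marks the inhibitor IkappaB alpha for destruction, and NF-kappaB then enters the nucleus and raises adhesion molecules, chemokines and its own inhibitors. Selectins on the vessel wall slow passing leukocytes, chemokines activate them, and the immunoglobulin-family adhesion molecules hold them through integrins. In the brain these genes are known as markers of an activated vessel wall, and some are also made by microglia, astrocytes and the choroid plexus.

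Libraries held between 14811464 and 20046909 counts in genes. Levels are in CPM, counts brought to one common library total after TMM scaling, which allows for differences in library composition. All 15 cerebellar neuron markers were found, and they summed to between 7354 and 9204 CPM in every library. Tests are edgeR's quasi-likelihood test with Benjamini-Hochberg adjustment over the 14994 genes that passed a filter on low counts, and a gene counted as changed at an adjusted p under 0.05. Of the 8 measured genes, 6 passed that filter. PTGS2 and CXCL8 did not, and their tests come from a fit to all genes with at least 1 count. Among the genes of the lists described below, GP1BB, ICAM3, FUT7, LYZ, PTGDS, TRAF2, TRAF3, CSF2 and TNFAIP2 were listed at 0 in every library. The identifier matched to such a symbol may not be the one to which its reads were counted, so these zeros are not read as absence. Transcript lengths were not used here, so levels are not compared between genes. In whole tissue, fewer cells of a type and less RNA per cell cannot be told apart.

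None of the 6 filtered genes passed the test between BDL and SHAM, where 0% of all 14994 genes were called. SELP (P-selectin) had the largest difference of the 6, at 1.51-fold higher in BDL. VCAM1, TNFAIP3 and NFKBIA lay close to equal in the 2 surgeries, at 0.966, 0.990 and 1.04 times the SHAM level. ICAM1 and CCL2 lay at 1.05 and 1.08 times the SHAM level and varied 5.37-fold and 6.58-fold from the lowest to the highest animal. SELP was the 1 gene of the 6 with an unadjusted p under 0.05, against 4.96% of all genes tested. DESeq2 called 1 gene of all those tested and limma-voom 0, none of them among the 6. Of the 6, 4 had a positive log2 difference and their median was 0.064, beside 50.3% of all genes above 0 and a median of 0.00061.

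**Figure D1:**
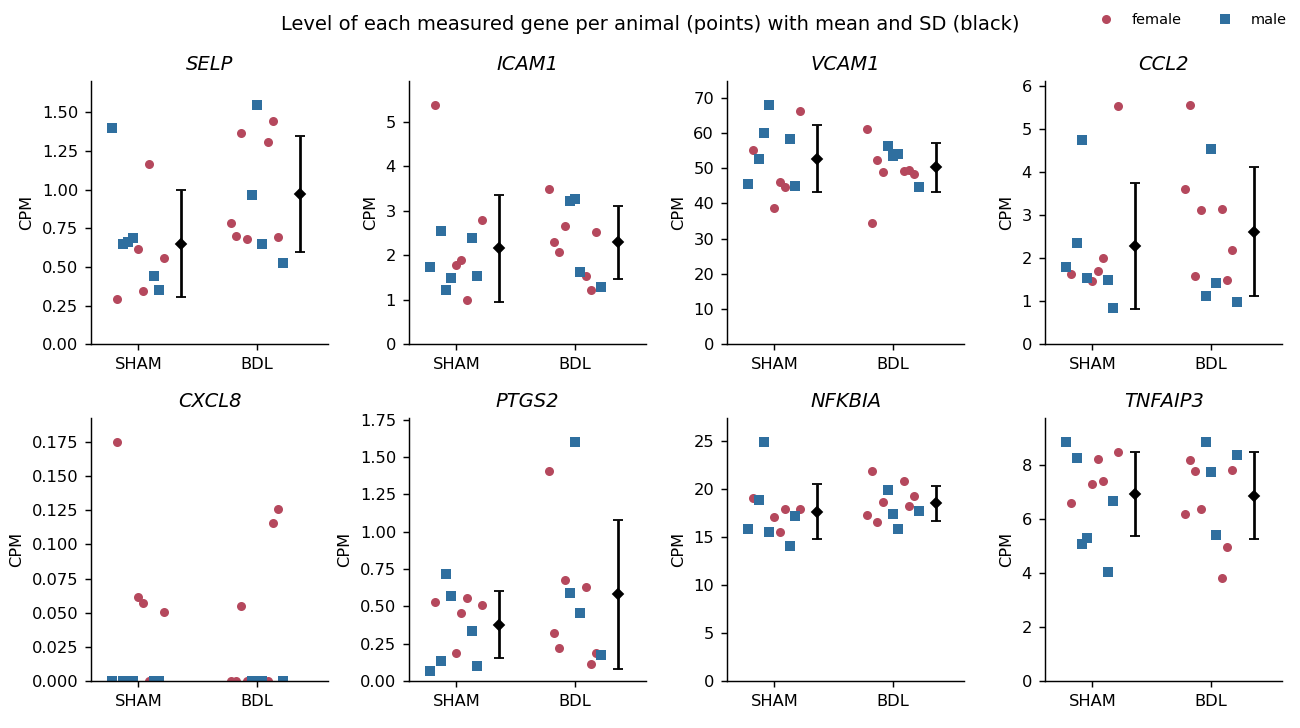
Level of each measured gene in CPM (y axis, one panel per gene) in the 11 SHAM and 11 BDL piglets; each point is 1 animal, marked by sex, with the group mean and SD in black (none for CXCL8). The surgeries overlap in all 8 panels, and 9 of 11 BDL animals lie above the SHAM mean for SELP.

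The first step of capture is the selectin step. SELP encodes P-selectin, which endothelial cells and platelets store and bring to their surface on activation (Sscrofa11.1, chr4:81376804-81401240). SELP stood at 0.524 CPM in the lowest, 0.786 in the median and 1.55 in the highest BDL animal. In SHAM it stood at 0.292, 0.613 and 1.40 CPM. The 4 highest BDL animals were replicates 3, 6, 8 and 9, between 1.31 and 1.55 CPM, and in SHAM replicates 1 and 8 stood alone above 1 CPM. The groups overlapped: 2 of 11 BDL animals lay above every SHAM animal, and none lay below every SHAM animal. Means were 0.970 ± 0.375 CPM in BDL and 0.651 ± 0.345 in SHAM (SD, n = 11 each). The log2 difference was 0.60 ± 0.27 (SE), a 1.51-fold difference with a 95% interval from 1.02 to 2.24, and it did not pass the test (edgeR, unadjusted p = 0.0381, adjusted p = 0.881).

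The count behind these values is small. SELP had 5 to 28 counts per library, 187 in all BDL libraries together and 123 in all SHAM libraries. Counting alone at that depth gives a coefficient of variation of 26.6%, where the coefficient over the 22 animals was 47.9%. Leaving out 1 animal at a time gave log2 differences between 0.47 (without BDL replicate 6) and 0.77 (without SHAM replicate 8). The unadjusted p stayed under 0.05 in 12 of those 22 fits, and adjusted p ran from 0.710 to 0.992 over them.

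The stores that hold P-selectin were measured beside it. Of 11 tested genes of the Weibel-Palade body and of endothelial activation, 7 were on the higher side in BDL and 0 passed the test, with a median log2 of 0.050. Values of that list included KLF2, a flow-induced transcription factor of quiescent endothelium (log2 0.27 ± 0.13 SE). ANGPT2, a vessel-destabilising ligand stored in Weibel-Palade bodies, stood at -0.23 ± 0.11. VWF and THBD matched no identifier.

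Platelets are the other source of P-selectin. Their 6 matched markers summed to between 5.08 and 9.96 CPM in BDL and between 4.69 and 7.87 in SHAM, with GP1BB listed at 0 under the doubt on identifiers given above. On the higher side in BDL were 2 of the 4 tested platelet markers: GP6 stood at log2 0.39 ± 0.28 (SE), TUBB1 at -0.23 ± 0.17 and PPBP at -0.29 ± 0.31. The 10 matched endothelial markers summed to between 189 and 301 CPM in BDL and between 216 and 279 in SHAM. On the higher side were 4 of the 10, with a median log2 of -0.011. The part of platelets or of endothelial content in the SELP difference was not tested.

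Firm adhesion depends on ICAM1 and VCAM1. ICAM1 (chr2:69097136-69107722) binds the leukocyte integrins LFA-1 and Mac-1. Its level was 1.21 CPM in the lowest, 2.30 in the median and 3.48 in the highest BDL animal, and 1.001, 1.78 and 5.38 CPM in SHAM. The highest value of all 22 belonged to SHAM replicate 2, a female and the heaviest animal, and the next SHAM animal stood at 2.79 CPM. No BDL animal lay outside the SHAM range. Means were 2.29 ± 0.816 CPM in BDL and 2.16 ± 1.20 in SHAM (SD, n = 11 each), a log2 difference of 0.067 ± 0.25 (SE) with a fold interval from 0.735 to 1.49. Single animals moved this value: the log2 difference was 0.32 without SHAM replicate 2, and it turned to -0.040 without BDL replicate 6.

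VCAM1 (chr4:117496914-117511211), the ligand of the integrin VLA-4, had 540 to 1305 counts per library, so counting adds little to its spread. It stood at 34.5, 49.6 and 61.1 CPM in the lowest, median and highest BDL animal, and at 38.6, 52.6 and 67.9 CPM in SHAM. BDL replicate 2 was the 1 BDL animal below every SHAM animal, and the groups otherwise overlapped. Means were 50.2 ± 6.85 CPM in BDL and 52.7 ± 9.61 in SHAM (SD, n = 11 each). The log2 difference was -0.050 ± 0.094 (SE), with a fold interval from 0.844 to 1.11 (edgeR, adjusted p = 0.944).

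Other genes of the vessel wall and the leukocyte side of these contacts showed no called gene either. Of 14 tested adhesion and junction genes, 9 lay above 0 in BDL relative to SHAM (median log2 0.036). They were led by MCAM, an endothelial adhesion molecule (0.093 ± 0.070 SE), ACKR1, the chemokine-binding receptor of venules (0.13 ± 0.11), and OCLN, a tight-junction protein (0.083 ± 0.083). Of 11 tested integrins, selectin ligands and chemokine receptors of leukocytes, 5 were on the higher side (median log2 -0.023). ITGB7, an integrin subunit of gut-homing lymphocytes, stood at 0.97 ± 0.44 (SE), and SPN, a leukocyte sialoglycoprotein, at 0.47 ± 0.39. SELPLG, the main ligand of P-selectin, matched no identifier.

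The chemokines were CCL2 and CXCL8. CCL2 (chr12:40798109-40800013) attracts monocytes. Its level was 0.989, 2.20 and 5.56 CPM in the lowest, median and highest BDL animal, and 0.844, 1.71 and 5.53 CPM in SHAM. BDL replicates 2 and 6 and SHAM replicates 4 and 11 stood between 4.53 and 5.56 CPM, and all others at 3.59 CPM or less, so the groups overlapped over their whole range. Means were 2.62 ± 1.502 CPM in BDL and 2.28 ± 1.47 in SHAM (SD, n = 11 each). The log2 difference was 0.11 ± 0.33 (SE), with a fold interval from 0.673 to 1.73. It was -0.15 without BDL replicate 6 and 0.37 without SHAM replicate 11.

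CCL2 was the most variable of the 6 filtered genes. Its highest animal stood 6.58 times above its lowest, and its coefficient of variation over the 22 animals was 59.6% where counting alone gives 15.3%. The 14 matched blood leukocyte markers summed to between 11.8 and 23.9 CPM in BDL and between 12.02 and 24.4 in SHAM, with LYZ listed at 0 under the same doubt on its identifier. Of the 6 that passed the filter, 5 were on the higher side in BDL, with CD8A, a cytotoxic T-cell co-receptor, at log2 0.71 ± 0.37 (SE), CD2, a T-cell adhesion receptor, at 0.46 ± 0.42, and NKG7, a cytotoxic granule gene, at -0.079 ± 0.11. The receptors CCR2, CXCR1 and CXCR2 matched no identifier.

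CXCL8 (chr8:69932646-69935861), the main neutrophil chemokine, had 11 counts in all 22 libraries together. It had 1 count in BDL replicate 3 and 2 counts in each of BDL replicates 9 and 10. In SHAM it had 3 counts in replicate 2 and 1 count in each of replicates 6, 7 and 11. It was at 0 in the other 8 BDL and 7 SHAM libraries, where a count of 0 allows up to 3 counts, or 0.150 to 0.203 CPM by the size of the library. Every library was at or under that limit of 3 counts, and no fold is given. Such limits cover counting error only.

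The negative-feedback genes were NFKBIA and TNFAIP3, with coefficients of variation of 13.2% and 22.6% over the 22 animals where counting gives 5.63% and 9.13%. NFKBIA (chr7:64508119-64510754) encodes IkappaB alpha, which holds NF-kappaB in the cytoplasm and is resynthesised by it. NFKBIA stood at 15.8, 18.3 and 21.9 CPM in the lowest, median and highest BDL animal, and at 14.1, 17.2 and 24.9 CPM in SHAM. SHAM animals held the 4 lowest values and, in replicate 4, the highest, and the BDL animals lay inside its range. Means were 18.5 ± 1.84 CPM in BDL and 17.6 ± 2.87 in SHAM (SD, n = 11 each). The log2 difference was 0.061 ± 0.083 (SE), with a fold interval from 0.928 to 1.17 (edgeR, adjusted p = 0.930).

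TNFAIP3 (chr1:26474158-26489771) encodes A20, a ubiquitin-editing enzyme that shuts off signalling upstream of IKK. TNFAIP3 stood at 3.82, 7.74 and 8.86 CPM in the lowest, median and highest BDL animal, and at 4.05, 7.30 and 8.85 CPM in SHAM. The ranges nearly coincided, with 1 BDL animal above and 1 below every SHAM animal. Means were 6.86 ± 1.62 CPM in BDL and 6.92 ± 1.56 in SHAM (SD, n = 11 each), a log2 difference of -0.014 ± 0.15 (SE) with a fold interval from 0.803 to 1.22.

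PTGS2 (chr9:127850164-127858866) encodes the inducible cyclooxygenase that starts prostaglandin synthesis, and neurons also express it. Of the 22 libraries, 9 had 10 or more counts of it. Its level was 0.116, 0.454 and 1.603 CPM in the lowest, median and highest BDL animal, and 0.0665, 0.456 and 0.716 CPM in SHAM. BDL replicates 1 and 6, at 1.40 and 1.603 CPM, lay above every SHAM animal, while the medians of the surgeries were alike. Means were 0.579 ± 0.498 CPM in BDL and 0.377 ± 0.224 in SHAM (SD, n = 11 each). In the fit to all genes with a count the log2 difference was 0.62 ± 0.42 (SE), with a fold interval from 0.846 to 2.78 (edgeR, adjusted p = 0.820). It was 0.24 without BDL replicate 6.

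Of the 13 other tested genes of prostaglandin synthesis and reception, 6 were on the higher side in BDL and 0 passed the test (median log2 -0.020). HPGD, which breaks prostaglandins down, stood at -0.37 ± 0.18 (SE). PTGS1, the constitutive cyclooxygenase, stood at 0.23 ± 0.13 and TBXAS1, the thromboxane synthase, at 0.39 ± 0.22.

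**Figure D2:**
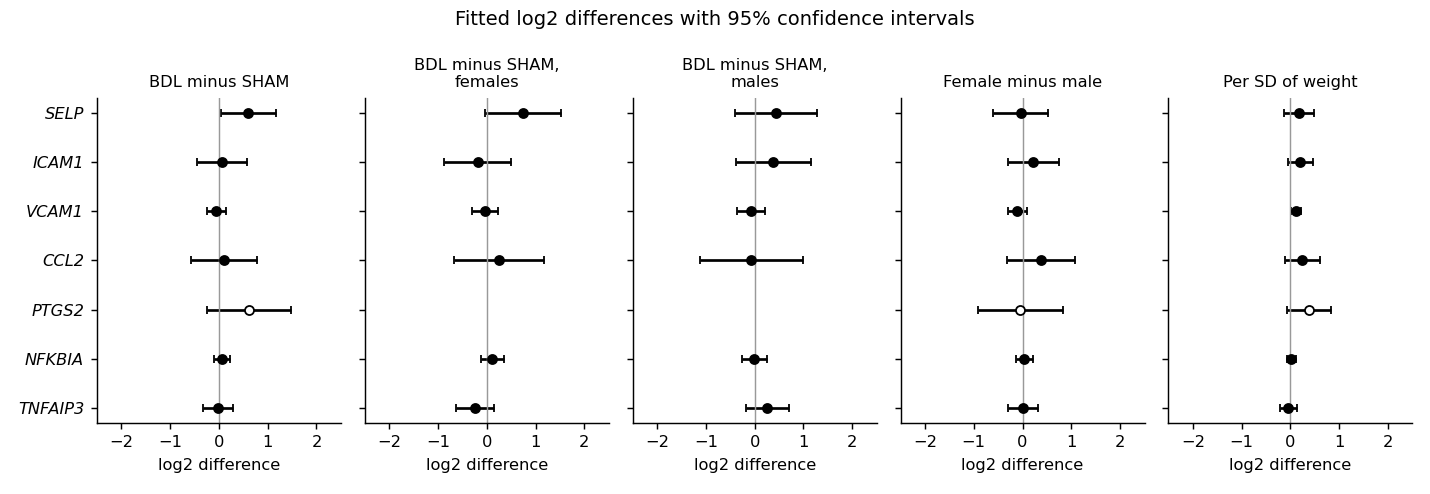
Log2 difference with its 95% interval (x axis) for 7 genes (CXCL8 is not drawn), in panels for BDL minus SHAM, the same within females and within males, females minus males, and per SD of labelled body weight. Filled points are the 6 filtered genes and open points PTGS2 from the fit to all genes (not drawn within sexes). Of the intervals drawn, those of SELP in the first panel (from 0.035 to 1.16) and VCAM1 in the last (0.013 to 0.21) lie above 0 before adjustment.

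The pathway around these genes was described by lists in the order of its steps, and none of the lists held a called gene between BDL and SHAM. Of 20 NF-kappaB subunits, inhibitors and kinases, 13 were on the higher side (median log2 0.044). CHUK, the IKK alpha kinase, stood at -0.17 ± 0.090 (SE), NFKBIB, a second inhibitor, at 0.11 ± 0.059, and IKBKG, the regulatory subunit of IKK, at 0.12 ± 0.079. Of 22 tested receptors and adaptors upstream, 15 were on the higher side (median 0.035). CD14, the endotoxin co-receptor, stood at -0.21 ± 0.14, TRAF1, an adaptor of TNF receptors, at 0.16 ± 0.12, and IRAK4, a kinase below the Toll-like receptors, at -0.18 ± 0.14.

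Of 10 tested brakes on the pathway, 4 were on the higher side (median log2 -0.019). TNIP2, a partner of A20, stood at 0.12 ± 0.077 (SE), CYLD, a deubiquitinase, at -0.083 ± 0.059, and RNF11, a subunit of the A20 complex, at -0.057 ± 0.043. Of 20 tested further NF-kappaB targets, 13 were on the higher side (median 0.15). PLAU, the urokinase gene, stood at -0.25 ± 0.13, CSF1, a macrophage growth factor, at 0.21 ± 0.12, and CCL4, a chemokine, at 0.46 ± 0.29. TNF matched no identifier.

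Other programmes can touch the same genes. Interferon response genes were on the higher side in 16 of 16 tested, with a median log2 of 0.31 and 0 called. IRF7, a transcription factor of the response, stood at 0.56 ± 0.23 (SE), USP18, its feedback inhibitor, at 0.86 ± 0.36, and STAT2, a signal transducer, at 0.18 ± 0.082. Glucocorticoid response genes were on the higher side in 6 of 10 (median 0.097), with PER1 at 0.33 ± 0.14, the glucocorticoid receptor NR3C1 at -0.10 ± 0.045 and ZBTB16 at 0.57 ± 0.27. Immediate early genes were on the higher side in 9 of 12 (median 0.21), with EGR1 at 0.37 ± 0.16, ARC at -0.49 ± 0.28 and FOSB at 0.50 ± 0.30.

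Markers of cells that can express the 8 genes differed little between the surgeries, and none was called. On the higher side in BDL were 2 of 4 venous, 4 of 9 mural, 1 of 9 meningeal, 3 of 4 choroid plexus, 5 of 15 microglia, 2 of 8 astrocyte, 3 of 3 red cell and 7 of 15 cerebellar neuron markers. The marker of smallest p stood at log2 -0.16 ± 0.075 (SE) for endothelium (KDR), -0.20 ± 0.14 for venules (PLVAP), -0.25 ± 0.093 for mural cells (RGS5) and -0.20 ± 0.084 for meninges (OGN). It stood at -0.33 ± 0.22 for astrocytes (SLC1A2), 0.067 ± 0.057 for choroid plexus (OTX2), 0.44 ± 0.47 for red cells (HBB) and -0.10 ± 0.048 for neurons (GABRA6). Median log2 values of these lists lay between -0.086 (meninges) and 0.14 (red cells). Microglia markers summed to between 155 and 320 CPM in BDL and between 165 and 330 in SHAM. Choroid plexus markers, whose epithelium is known to express VCAM1 and ICAM1, ranged widely in both surgeries, from 90.4 to 1570 CPM in BDL and from 75.4 to 994 in SHAM. Within those sums OTX2 alone gave 68.9 to 101 CPM in every library, while TTR ran from 1.66 to 1393 CPM. The lowest sums were thus mostly OTX2, and the wide range came largely from TTR. The part of choroid plexus and of the other cells in the levels of the 8 genes was not tested.

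The labels also give sex, and the surgeries held unequal numbers of females. Within females the log2 difference of BDL against SHAM was 0.74 ± 0.38 (SE) for SELP, and within males it was 0.43 ± 0.41. The male value ran from 0.063 without BDL replicate 6 (1 of 4 BDL males) to 0.74 without SHAM replicate 1. The female value ran from 0.57 (without SHAM replicate 2) to 1.13 (without SHAM replicate 8). The interaction of treatment and sex for SELP was 0.30 ± 0.56 (edgeR, adjusted p = 0.954). TNFAIP3 had opposite signs in the sexes, at -0.24 ± 0.19 in females (-0.14 without BDL replicate 8) and 0.26 ± 0.21 in males (0.15 without SHAM replicate 9). Female levels of TNFAIP3 were 6.44 ± 1.62 CPM in BDL (SD, n = 7) and 7.59 ± 0.750 in SHAM (n = 5). Male levels were 7.59 ± 1.54 in BDL (n = 4) and 6.36 ± 1.90 in SHAM (n = 6).

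The TNFAIP3 interaction was -0.50 ± 0.29 (SE; edgeR, unadjusted p = 0.0924, adjusted p = 0.917), so the sexes were not shown to differ. None of the 6 genes was called for the interaction, where 0% of all genes were called and 0 of the 6 against 4.6% of all had an unadjusted p under 0.05 (edgeR; DESeq2 and limma-voom also called 0 genes). The same 0 of 6 stood against 5.83% of all genes within females and 4.08% within males, where 0% passed adjustment. ICAM1 was also of opposite sign, at -0.18 ± 0.33 in females and 0.38 ± 0.37 in males, and the female value was 0.27 without SHAM replicate 2 and the male value 0.18 without BDL replicate 6. CCL2 stood at 0.25 ± 0.45 in females (0.022 without BDL replicate 2) and -0.066 ± 0.51 in males (-0.85 without BDL replicate 6). NFKBIA stood at 0.11 ± 0.11 and -0.0031 ± 0.12, and VCAM1 at -0.030 ± 0.13 and -0.075 ± 0.14. PTGS2, from the fit to all genes, stood at 0.19 ± 0.57 in females and 1.13 ± 0.62 in males. BDL replicate 6 held 29 of the 50 PTGS2 counts of the 4 BDL males. The PTGS2 interaction was -0.94 ± 0.84, and -0.14 without BDL replicate 6.

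Cell type markers also had opposite signs in the sexes, with 0 called. Microglia markers were lower in 14 of 15 in BDL females (median log2 -0.24) and higher in 14 of 15 in BDL males (0.20). TNFAIP3 and ICAM1 had those signs, and CCL2 and NFKBIA (near 0 in males) had the reverse. SELP, VCAM1 and PTGS2 each had 1 sign in both sexes. Summed microglia markers ran from 155 to 265 CPM in BDL females and from 179 to 330 in SHAM females. In males they ran from 221 to 320 in BDL and from 165 to 281 in SHAM. Choroid plexus markers had medians of 1.46 in females and -1.82 in males. Their 4 tested genes all had an unadjusted p under 0.05 for the interaction (median 3.51), against 4.6% of all genes (edgeR). Choroid plexus markers summed to between 103 and 1570 CPM in BDL females (median 145) and between 75.4 and 339 in SHAM females (median 158). In males they summed to between 90.4 and 178 in BDL (median 114) and between 99.0 and 994 in SHAM (median 230). OTX2 alone gave 68.9 to 101 CPM in every library, so the lowest of these sums were mostly OTX2. Red cell markers had medians of 0.89 in females and -0.60 in males. The part of these cells in the values by sex was not tested.

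Between the sexes themselves, none of the 6 filtered genes was among the 9 genes called, 0.06% of all tested, and 0 of 6 had an unadjusted p under 0.05, against 5.95% of all (edgeR). CCL2 averaged 2.75 ± 1.49 CPM in the 12 females and 2.08 ± 1.41 in the 10 males (SD), a log2 difference of 0.38 ± 0.33 (SE). It was 0.14 without SHAM replicate 11 and 0.66 without BDL replicate 6. ICAM1 differed by 0.22 ± 0.25 (0.041 with body weight as a covariate) and VCAM1 by -0.11 ± 0.095 (-0.20 with body weight as a covariate). SELP, TNFAIP3 and NFKBIA lay at -0.039 ± 0.27, 0.016 ± 0.15 and 0.037 ± 0.083, and PTGS2 at -0.044 ± 0.43. CXCL8 was counted in 7 of 12 females and in 0 of 10 males. The male libraries together held 174253734 gene counts, in which a count of 0 allows up to 0.0172 CPM, while the females averaged 0.0534 ± 0.0590 CPM (SD). In the fit to all genes with a count CXCL8 had an unadjusted p of 0.00191 and an adjusted p of 0.468 (edgeR), and adjusted p ran from 0.403 to 0.946 over the alternatives.

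Body weight was the second axis. It was 2044 ± 313 in BDL and 2035 ± 273 in SHAM (SD, n = 11 each), 2133 ± 315 in the 12 females and 1926 ± 210 in the 10 males. Slopes are log2 differences per SD of weight (286 in the label's unit), beside sex and treatment. None of the 6 filtered genes passed the test, where 0% of all genes were called, and 1 of the 6 had an unadjusted p under 0.05, against 7.39% of all genes. Of the 6 slopes, 5 were positive, with a median of 0.14, beside 50.3% of all genes and a median of 0.00040.

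VCAM1 had that slope, at 0.11 ± 0.048 (SE; edgeR, unadjusted p = 0.0275, adjusted p = 0.627). Over the 5 lightest animals VCAM1 stood at 38.6, 44.96 and 56.3 CPM (lowest, median, highest), and over the 5 heaviest at 48.3, 55.3 and 66.2 CPM. These groups overlapped, with means of 46.7 ± 6.53 and 56.0 ± 7.65 CPM (SD, n = 5 each). All 5 heaviest animals were female, against 2 of the 5 lightest, and 3 animals of each set had BDL. Leaving out 1 animal at a time gave slopes between 0.087 and 0.14, with an unadjusted p under 0.05 in 20 of 22 fits. With no sex and no treatment term the slope was 0.070, with an unadjusted p of 0.142 (edgeR). With both terms the slope was 0.089 ± 0.061 within BDL animals (0.054 without BDL replicate 2) and 0.15 ± 0.071 within SHAM animals (0.097 without SHAM replicate 11), and the difference of the 2 slopes was -0.057 ± 0.090.

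**Figure D3:**
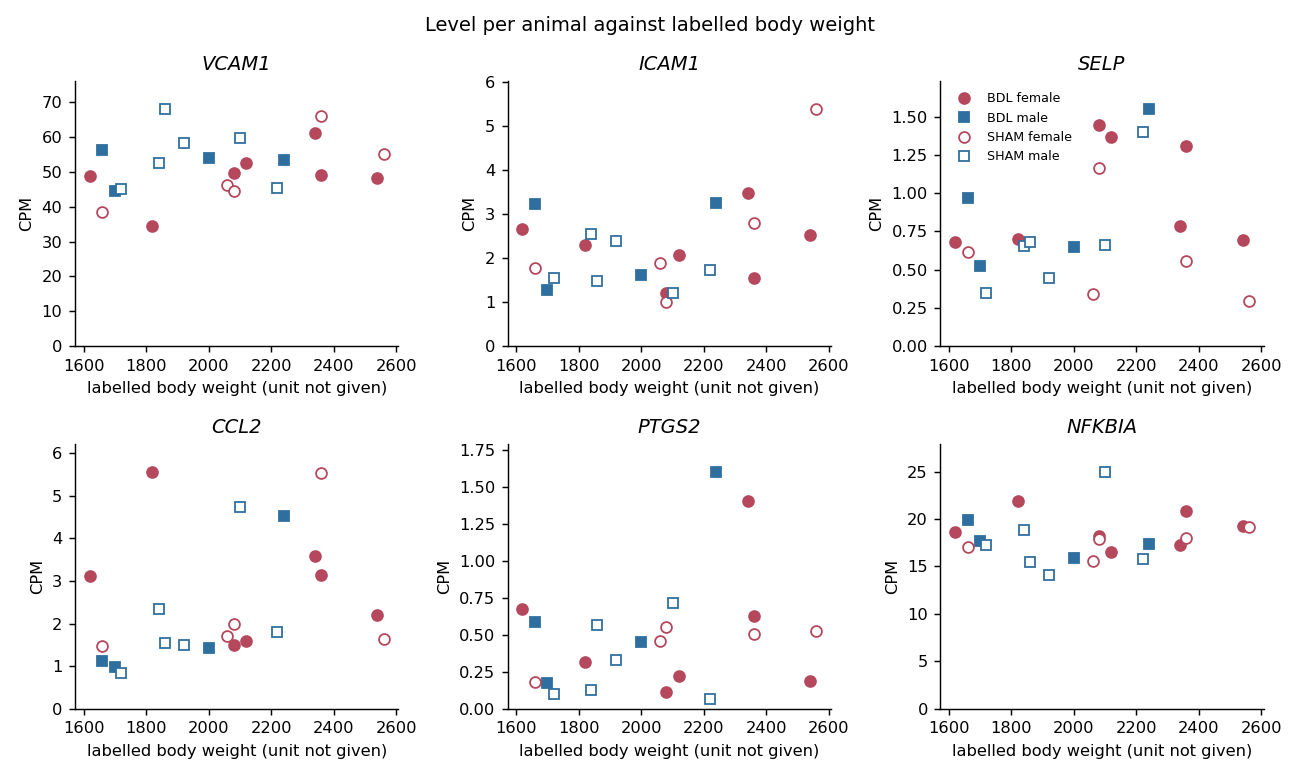
Level of 6 of the measured genes in CPM (y axis, one panel per gene) against labelled body weight (x axis, unit not given); each point is 1 piglet, marked by surgery and sex. For VCAM1 the 5 heaviest animals lie between 48.3 and 66.2 CPM and the 5 lightest between 38.6 and 56.3, and the highest ICAM1 value, 5.38 CPM, belongs to the heaviest animal.

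The other slopes were less certain. ICAM1 had a slope of 0.21 ± 0.12 (SE), CCL2 of 0.24 ± 0.17 and SELP of 0.18 ± 0.15. Each rested in part on 1 animal: ICAM1 was at 0.062 without SHAM replicate 2, CCL2 at 0.14 without BDL replicate 6 and SELP at 0.093 without SHAM replicate 1. NFKBIA and TNFAIP3 lay near 0, at 0.012 ± 0.045 and -0.040 ± 0.081. PTGS2 had a slope of 0.38 ± 0.22 in the fit to all genes, and 0.21 without BDL replicate 6. CCL2 stood at 1.51 ± 0.932 CPM in the 5 lightest and 3.22 ± 1.501 in the 5 heaviest animals (SD). CXCL8 had 1 count over the 5 lightest and 6 counts over the 5 heaviest libraries, 3 of the 6 from SHAM replicate 2. All 5 heaviest animals were female against 2 of the 5 lightest, and CXCL8 was counted in 0 of 10 males. Sex and weight are thus not separated in these counts.

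Within SHAM animals the ICAM1 slope was 0.42 ± 0.17 (SE; edgeR, unadjusted p = 0.0237, adjusted p = 0.851), and within BDL animals it was 0.038 ± 0.16. The difference of the 2 slopes, BDL minus SHAM, was -0.38 ± 0.22 (adjusted p = 0.999), so the surgeries were not shown to differ. Without SHAM replicate 2 the SHAM slope was 0.10 and the difference was -0.061. None of the 6 genes was called for a difference of slopes, where edgeR, DESeq2 and limma-voom each called 0% of all genes. An unadjusted p under 0.05 was found for 0 of the 6, against 3.11% of all genes. For the slope within BDL animals that count was 0 of 6, against 5.22% of all, and within SHAM animals it was 1 of 6 (ICAM1), against 5.34%. Adjusted, edgeR called 0% of genes for either slope.

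Several marker lists lay to one side of 0 along body weight, and none of their genes was called. All 15 tested microglia markers had positive slopes (median 0.16), with P2RY12, a nucleotide receptor of resting microglia, at 0.27 ± 0.060 (SE) and ITGAM, an integrin subunit, at 0.18 ± 0.060. Positive slopes were also seen in 8 of 8 astrocyte markers (median 0.092), 9 of 10 endothelial markers (median 0.044), 5 of 6 leukocyte markers (median 0.21) and 16 of 16 interferon response genes (median 0.27). All 4 choroid plexus markers had negative slopes (median -0.84), as did 3 of 3 red cell markers (median -0.44) and 3 of 4 platelet markers (median -0.19). The marker of smallest p stood at 0.10 ± 0.033 for astrocytes (SLC1A3), 0.25 ± 0.075 for endothelium (ERG), 0.70 ± 0.17 for leukocytes (CD2), -1.10 ± 0.42 for choroid plexus (CLIC6) and -0.49 ± 0.14 for platelets (PPBP). Summed microglia markers ran from 192 to 265 CPM in the 5 lightest and from 225 to 330 in the 5 heaviest animals. The part of these cell types in the slopes of VCAM1, ICAM1 and CCL2 was not tested.

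In the pathway lists, 18 of 22 receptors and adaptors had positive slopes on weight (median 0.068). They were led by TLR3 and TLR4, the receptors of double-stranded RNA and of endotoxin, at 0.35 ± 0.077 (SE) and 0.37 ± 0.10 (edgeR, adjusted p = 0.335 and 0.418). Positive slopes were found in 10 of 11 leukocyte ligands and receptors (median 0.16), with CXCR4 at 0.16 ± 0.051 and ITGAL, a subunit of the ICAM1-binding integrin LFA-1, at 0.16 ± 0.052. The NF-kappaB core was even, with 10 of 20 positive (median 0.0034), REL at 0.20 ± 0.084 and MAP3K14 at -0.086 ± 0.033. Of the brakes 7 of 10 were positive (median 0.031), led by OTULIN at 0.081 ± 0.034. Of the further targets 14 of 20 were positive (median 0.033), with IRF1 at 0.28 ± 0.090 and the chemokine CXCL10 at 0.72 ± 0.28. Positive slopes were also found in 8 of 14 adhesion genes, 7 of 11 Weibel-Palade genes, 9 of 13 prostaglandin genes, 6 of 10 glucocorticoid genes and 11 of 12 immediate early genes.

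Whether the 6 filtered genes vary together across animals was tested over their 15 pairs. None passed adjustment (permutation test, 100000 resamples, adjusted over 15 pairs). The pair with the smallest p was CCL2 and NFKBIA, with r = 0.50 over 22 animals (permutation p = 0.0160, adjusted p = 0.240) and Spearman's rho = 0.47 (permutation p = 0.0305, adjusted p = 0.458). Without the 2 animals farthest from the CCL2 median r was 0.46, and it was 0.39 within BDL and 0.59 within SHAM animals. SHAM replicate 4 and BDL replicate 2 held the 2 highest NFKBIA values and stood among the 4 highest for CCL2.

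The adhesion genes gave low values among themselves. SELP and ICAM1 had r = -0.23 over the 22 animals (permutation p = 0.307), with 0.016 within BDL and -0.56 within SHAM. ICAM1 and VCAM1 had r = 0.27 (permutation p = 0.229). The feedback genes TNFAIP3 and NFKBIA had r = 0.0091 (permutation p = 0.968). VCAM1 and CCL2 had r = 0.12, and 0.53 without 2 animals, an adjusted p of 0.230 (permutation).

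**Figure D4:**
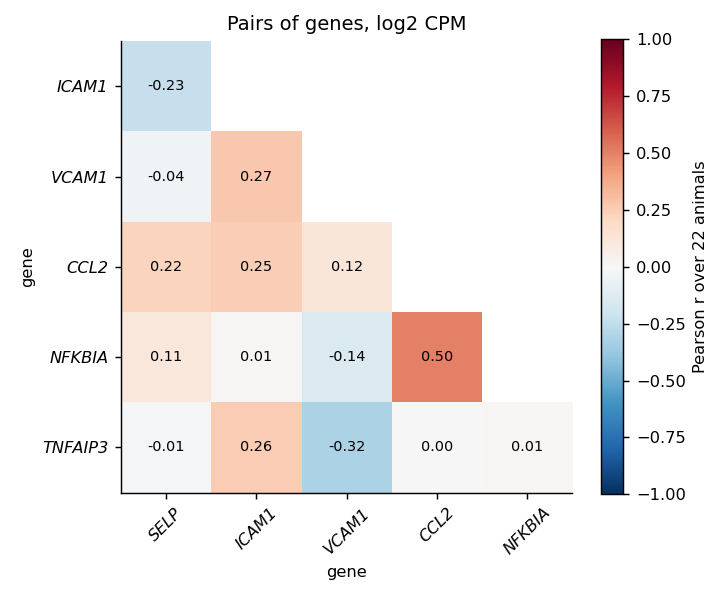
Pearson's r of log2 CPM between each pair of the 6 filtered genes over the 22 piglets; colour and number give r. The highest value is 0.50, between CCL2 and NFKBIA, and none of the 15 pairs passed adjustment.

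For each filtered gene, the 3 genes of most similar level over the 22 animals were taken from 12316 others with a symbol, as a description with no test. The libraries share depth and cell makeup. SELP was most like DONSON (r = 0.68), F13A1 (0.68) and NRG1 (0.62). ICAM1 was most like CASQ1 (0.79), CCN2 (0.73) and IL10RA (0.72). VCAM1 was most like CCDC80 (0.84), NEK7 (0.82) and PCDH10 (0.81). CCL2 was most like AKNA (0.80), FLI1 (0.78) and SLA-DMA (0.78). TNFAIP3 was most like BRPF3 (0.76), CECR2 (0.73) and GSE1 (0.72), and NFKBIA was most like KDELR2 (0.81), ARHGEF39 (0.78) and TUBB (0.77). Of the genes followed here, only those that passed the filter were in this search. None of them was among the 3 nearest of another.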

How the data were processed

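The labels give surgery, sex and body weight for 22 piglet cerebella, extracted as total RNA with a column kit for fatty tissue and sequenced in pairs. The authors deposited 1 table of raw counts for each animal, as whole numbers by Ensembl identifier. Per the submitters' processing notes, the tools were Trim Galore, HISAT2, HTSeq and DESeq2, and the build was Sscrofa11.1. No tool version and no strand setting is given in the sources used here. If strand was ignored, reads of overlapping antisense genes could not be told apart. Lines naming no gene held 29.9% to 34.6% of counts and were left out.

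A symbol was found for 15029 of the 31907 identifiers. The gene coordinates printed here are those that RefSeq lists on Sscrofa11.1. The 10 genes and all lists were chosen with earlier results of these data known. Animal numbers in the labels pair no animals, and shared litters are neither stated nor denied by the labels.

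Genes were filtered with filterByExpr of edgeR 4.0.16 in R 4.3.3 (minimum count 10, minimum total 15, 14994 genes), scaled by TMM and fitted with robust quasi-likelihood on sex and treatment. Weight was added as a slope, and the effects within sexes came from 1 model of the 4 groups of sex and surgery. Benjamini-Hochberg adjustment ran over all genes tested, with a threshold of 0.05 and 95% intervals. PTGS2 and CXCL8 failed the filter and were tested without it, an alternative added after seeing the data. Pairs used log2 CPM with a prior count of 2 and two-sided permutation with 100000 resamples (scipy 1.17.1). Alternatives were DESeq2 size factors, no filter, DESeq2 1.42.0, limma-voom (limma 3.58.1), a fit that was not robust, other covariates and leaving out each animal. All 10 genes were to be named whatever their values. From each other list the text names up to 3 genes of smallest p for surgery and up to 2 for weight, with 1 for most cell type markers. Some genes that this rule names are not reported.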

Additional observations from a re-analysis of the deposited data

Results flagged for a closer look

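Within each group of sex and surgery, the highest and the lowest animal were compared with the rest by Dixon's gap test. Of 30 such groups over the measured genes 4 had an animal standing apart, where the nominal rate is about 1 in 20 groups. That rate assumes normally spread values and independent groups. Several genes here have low counts and all share the same animals, so 4 of 30 is not read as an excess. For SELP, SHAM replicate 1 stood at 1.40 CPM among the SHAM males, whose next value was 0.684. For CCL2, BDL replicate 6 stood at 4.53 CPM among the BDL males (next 1.43), and SHAM replicate 11 at 5.53 CPM among the SHAM females (next 2.001). For PTGS2, SHAM replicate 6 stood lowest among the SHAM females at 0.184 CPM (next 0.456), from 3 counts.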

How the results depend on the processing

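No paired analysis was possible because the labels carry no replicate numbers shared between surgeries. Of 1713 values of the measured genes under the alternatives, covering 61 results, 1641 kept their direction and 72 turned it, 7 of those with all 22 animals in the fit, and none was called in any setting. Counts of called genes depended on the tool. DESeq2 called 1 gene for BDL against SHAM, 1 in males, 23 between the sexes, 8 for body weight and 6 for the weight slope in SHAM. Without the count filter 31 genes differed between the sexes. Leaving out 1 animal gave 0 to 9 genes for body weight, with 9 without SHAM replicate 1 and 3 without BDL replicate 4.

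Log2 values that turned sign in a full set of animals were ICAM1 between surgeries (-0.035 with animal number as a covariate), SELP between sexes (0.084 without a treatment term) and PTGS2 between sexes (0.12 in limma-voom). NFKBIA in males turned to 0.00108 with DESeq2 size factors, 0.00180 without the filter, 0.00133 in DESeq2 and 0.021 in limma-voom. The cause was not tested, and each is smaller than the standard error given above for it. Leaving out 1 animal turned the sign within these log2 ranges. BDL against SHAM gave ICAM1 -0.040 to 0.32, VCAM1 -0.093 to 0.010, CCL2 -0.15 to 0.37 and TNFAIP3 -0.072 to 0.043. Females against males gave SELP -0.19 to 0.11, ICAM1 -0.013 to 0.34, TNFAIP3 -0.047 to 0.075 and PTGS2 -0.26 to 0.39. Body weight gave NFKBIA -0.011 to 0.031. The difference of weight slopes gave SELP -0.16 to 0.31 and PTGS2 -0.43 to 0.023. The interaction with sex gave SELP -0.00086 to 0.70, VCAM1 -0.036 to 0.17, CCL2 -0.10 to 1.09 and NFKBIA -0.0024 to 0.18. BDL against SHAM in females gave ICAM1 -0.39 to 0.27 and VCAM1 -0.11 to 0.091. BDL against SHAM in males gave CCL2 -0.85 to 0.35 and NFKBIA -0.068 to 0.12. The weight slope in BDL gave ICAM1 -0.030 to 0.13 and NFKBIA -0.036 to 0.0077. The weight slope in SHAM gave SELP -0.11 to 0.38. No covariate alternative was run for PTGS2 and CXCL8. Counts per library, 5 to 28 for SELP and 1 to 29 for PTGS2, limit their precision.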

Other observations

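Some animals were among the 4 highest for several genes, and others, such as SHAM replicate 3, for none. Over the 7 measured genes other than CXCL8, BDL replicate 6, a male of weight 2240, was among the 4 highest for SELP, ICAM1, CCL2 and PTGS2. SHAM replicate 4, a male of weight 2100, was among the 4 highest for VCAM1, CCL2, NFKBIA and PTGS2. BDL replicates 1 and 5 and SHAM replicate 11 were there for 3 genes each. SHAM replicate 2, with the highest ICAM1 level (5.38 CPM) and the most CXCL8 counts (3), had the lowest SELP level, 0.292 CPM from 5 counts.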
